A study of Mus musculus with 12 samples.

Results

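Interferon-stimulated genes were followed through the maturation of mouse bone marrow erythroblasts. The 9 genes were Irf7, Isg15, Usp18, Rsad2, Ifit1, Ifit2, Ifit3, Oasl2 and Bst2, out of 29838 genes in the expression table. They were picked by name after an earlier look at the same libraries, as genes of this family with levels rising toward Ortho. Their differences between stages are therefore given as a description, without a test. The data did not bear out the rise for every gene. Of the 9 genes, 6 were higher in all Ortho libraries than in all Pro libraries, Ifit2 was lower in all of them, and Ifit3 and Usp18 overlapped between these stages. Of all 12994 genes tested, 23.2% were higher and 53.6% lower in this way.

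RNA sequencing covered 4 stages, with 3 libraries each: proerythroblasts (Pro), basophilic (Baso), polychromatic (Poly) and orthochromatic (Ortho) erythroblasts. All libraries came from bone marrow with the genotype label WT, and by the study's methods from male C57BL/6 mice aged 8 weeks, with no treatment named. Cells were depleted of CD45+ cells on beads, and live cells negative for CD45, CD11b and GR1 were then gated. Pro cells were sorted as CD44hi Ter119low, and the later stages by CD44 against cell size among Ter119+ cells. Expression was given as FPKM, fragments per kilobase of transcript scaled to the fragments of the library, which is a level per length and can be compared between genes. The labels do not say whether the 3 libraries of a stage came from separate mice, so every p-value below measures only the spread between these libraries.

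Type I interferons bind a receptor on the cell surface and signal through Janus kinases to transcription factors that bind the interferon-stimulated response element in the promoters of their target genes. The proteins made in response block steps of viral replication, mark proteins with the ubiquitin-like modifier ISG15, and feed back on the receptor. Several of these genes are also transcribed at a low level without infection, in blood-forming cells among others.

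The promoters of the 9 genes were read first, since the family is known to respond through an element in its promoters. RefSeq windows on the mouse build GRCm38.p6, starting 250 bases upstream of each transcript start and reaching just past it, were given for 8 genes, and Usp18 had no entry. The core searched was GAAANNGAAA on both strands, which reads TTTCNNTTTC where it lies on the other strand. It was found in 5 of the 8 genes, against 3.99% of 27025 genes and 3.44% of 32851 promoters of the same length. Below are the stretches around the matches, with 20 bases on either side, written 5′ to 3′ on the strand of the gene, with every matching base in capitals.
Rsad2: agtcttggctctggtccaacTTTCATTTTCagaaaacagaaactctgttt
Isg15: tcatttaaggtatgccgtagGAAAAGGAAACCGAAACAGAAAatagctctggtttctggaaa
Ifit1: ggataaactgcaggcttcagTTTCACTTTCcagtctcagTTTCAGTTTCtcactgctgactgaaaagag
Ifit3: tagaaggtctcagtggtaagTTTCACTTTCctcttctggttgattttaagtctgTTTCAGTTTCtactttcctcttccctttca
Bst2: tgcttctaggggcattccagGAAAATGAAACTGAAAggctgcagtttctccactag

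These stretches lay at chr12:26456543-26456592 on the minus strand for Rsad2, chr4:156200855-156200916 on the minus strand for Isg15, chr19:34640765-34640833 on the plus strand for Ifit1, chr19:34583353-34583436 on the plus strand for Ifit3 and chr8:71537567-71537622 on the minus strand for Bst2. All were upstream of the transcript start. Rsad2 held 1 match and Ifit1 and Ifit3 held 2 separate matches each. In Isg15 there were 3 matches, and in Bst2 2, that ran into each other. Ifit2, Irf7 and Oasl2 held none, which says only that these letters were not in the window. A wider search that also allowed a single base between the GAAA words found the same 5 genes, against 7.27% of all genes. A second element, the gamma-activated sequence TTCNNNGAA, was searched too. It was found in 2 of the 8 genes, Ifit2 and Bst2, against 9.55% of all genes. A match is a description of the letters, and binding was not measured.

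The genes lay on 7 chromosomes of mouse build GRCm38. Rsad2 (ENSMUSG00000020641, chr12:26442746-26456452), Isg15 (ENSMUSG00000035692, chr4:156199424-156200818), Irf7 (ENSMUSG00000025498, chr7:141262706-141266481) and Bst2 (ENSMUSG00000046718, chr8:71534255-71537456) are on the minus strand, and Usp18 (ENSMUSG00000030107, chr6:121245906-121270917) and Oasl2 (ENSMUSG00000029561, chr5:114896936-114912234) are on the plus strand. Ifit2 (ENSMUSG00000045932, chr19:34550694-34576419), Ifit3 (ENSMUSG00000074896, chr19:34583531-34588731) and Ifit1 (ENSMUSG00000034459, chr19:34640871-34650009) are on the plus strand within 99.3 kb. All 9 are protein-coding, and a gene has 1 value per library. Irf7 overlapped the 3′ end of Phrf1, on the other strand with a mean of 16.5 FPKM, and Usp18 overlapped the lincRNA Gm44148, on the other strand with at most 0.504 FPKM. Since the sources used here do not say that strand was used in counting, reads in these overlaps cannot be assigned with certainty. Of the stretches of 100 bases in the exons of Ifit3, 31.7% also occurred in its close copy Ifit3b, so the level of Ifit3 is uncertain. The share was 3.29% for Ifit1, with Ifit1bl2, and 1.0% for Usp18, with Gm44148, and no such stretch was found for the other 6 genes.

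The regulator of the group, Irf7, encodes the transcription factor that drives the interferon genes themselves and amplifies the response. It was measured at 13.4, 11.1 and 12.1 FPKM in Pro replicates 1, 2 and 3, the order kept throughout, at 33.4, 26.2 and 26.4 in Baso, at 38.9, 20.4 and 23.1 in Poly and at 42.7, 30.7 and 22.4 in Ortho. All libraries of the later stages lay above all Pro libraries, and Baso, Poly and Ortho overlapped each other. The mean went from 12.2 ± 1.14 in Pro to 28.6 ± 4.13 in Baso (SD, n = 3 each), a ratio of 2.35, and to 31.9 ± 10.2 in Ortho. Most of the difference in Irf7 was thus present in Baso: the step from Pro to Baso was 1.16 in log2(FPKM + 1), and the next steps were -0.11 and 0.22.

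Isg15 encodes the ubiquitin-like modifier that is joined to newly made proteins during the response. Its levels were 47.1, 22.4 and 17.4 FPKM in Pro, 198.0, 120.4 and 113.2 in Baso, 168.2, 105.4 and 120.2 in Poly and 277.7, 201.1 and 226.8 in Ortho. Every Baso library was above every Pro library, Baso and Poly overlapped, and every Ortho library was above every Poly library. The mean went from 29.0 ± 15.9 in Pro to 235.2 ± 38.9 in Ortho (SD, n = 3 each), 8.12 times the Pro mean, and the gene moved from percentile 76.9 to percentile 98.3 of the genes tested in those stages. Pro replicate 1 was 0.81 above its stage mean on the log2 scale, the largest deviation of the 9 genes in any library.

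Usp18 encodes the protease that removes ISG15 from proteins and, apart from that, damps signalling at the type I receptor. It had 10.8, 6.24 and 7.46 FPKM in Pro, 15.2, 8.21 and 8.89 in Baso, 14.3, 7.42 and 10.8 in Poly and 14.1, 7.96 and 12.4 in Ortho. No stage separated from its neighbours, and Pro and Ortho overlapped as well. The ratio of the Ortho to the Pro mean was 1.41, and the difference in log2(FPKM + 1) was 0.45, against 3.09 for Isg15. Within every stage the library numbered 1 was the highest and that numbered 2 the lowest.

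Among the antiviral effectors, Rsad2 had the highest level in Ortho. It encodes viperin, an iron-sulphur enzyme that makes a nucleotide which stops viral RNA chains. Rsad2 was measured at 22.5, 21.8 and 15.2 FPKM in Pro, 135.6, 80 and 86.7 in Baso, 133.5, 102.4 and 99.5 in Poly and 397.5, 262.8 and 330.2 in Ortho. The levels formed 3 separate ranges: Pro, then Baso and Poly, which overlapped, then Ortho. The mean was 5.08 times higher in Baso than in Pro, and 2.95 times higher in Ortho than in Poly. From Pro to Ortho the mean went from 19.8 ± 4.04 to 330.2 ± 67.4 (SD, n = 3 each), a ratio of 16.6 and a move from percentile 67.8 to percentile 98.8. In Pro, Rsad2 lay below Isg15 by mean (19.8 against 29.0 FPKM), with overlapping libraries, and in Ortho above it (330.2 against 235.2), where the lowest Rsad2 value of 262.8 was still under the highest Isg15 value of 277.7.

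The Ifit genes encode proteins of tetratricopeptide repeats that bind viral RNA or its ends. The 3 neighbours on chromosome 19 had 3 different patterns. Ifit1 was at 1.47, 0.691 and 0.656 FPKM in Pro, 4.36, 2.09 and 2.61 in Baso, 3.59, 2.44 and 3.21 in Poly and 15.9, 11.3 and 12.3 in Ortho. All Baso libraries were above all Pro libraries, Baso and Poly overlapped, and Ortho lay well above both. The mean of Ifit1 went from 0.938 ± 0.458 in Pro to 13.2 ± 2.37 in Ortho (SD, n = 3 each), 14.1 times the Pro mean, and the largest step was the last, 1.79 on the log2 scale. The ratio rests on a Pro mean under 1 FPKM. The Ortho minus Pro difference in log2(FPKM + 1) was 2.88. It was 3.75 with 0.1 added to the FPKM in place of 1, and 1.61 with 5 added.

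Ifit2 went the other way. It was at 6.92, 5.96 and 6.73 FPKM in Pro, 3.10, 2.86 and 3.50 in Baso, 3.0, 2.64 and 2.76 in Poly and 2.49, 2.16 and 2.30 in Ortho. Every Pro library was above every library of the later stages, and every Poly library was above every Ortho library. The mean was 2.82 times higher in Pro (6.54 ± 0.51) than in Ortho (2.32 ± 0.165, SD, n = 3 each), and the difference in log2(FPKM + 1) was -1.18, against a median of -0.42 over all 12994 genes tested. In Pro, Ifit2 was thus above Ifit1 in every library, and in Ortho below it in every library.

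Ifit3 stayed near 1 FPKM. Its levels were 1.09, 0.624 and 0.225 in Pro, 0.402, 0.480 and 0.720 in Baso, 1.32, 0.289 and 0.697 in Poly and 1.62, 0.544 and 0.964 in Ortho. All stages overlapped. The Ortho mean was 1.04 ± 0.543 (SD, n = 3), at percentile 8.57, while Ifit1, with the same number of matches to the core in its promoter, was at percentile 67.2. The close copy Ifit3b was also low, with stage means of 0.171 in Pro and 0.494 in Ortho.

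Oasl2 belongs to the oligoadenylate synthetase family, whose members sense double-stranded RNA. Its levels were 5.80, 4.22 and 2.90 FPKM in Pro, 12.5, 5.04 and 5.0 in Baso, 12.5, 5.68 and 4.87 in Poly and 33.4, 18.9 and 20.8 in Ortho. Pro, Baso and Poly overlapped, and the high Baso and Poly means came from the libraries numbered 1. All Ortho libraries were above all others. The mean went from 4.31 ± 1.45 to 24.3 ± 7.88 (SD, n = 3 each), a ratio of 5.65, and 1.60 of the total log2 difference of 2.25 lay between Poly and Ortho. With 5 added to the FPKM in place of 1, the total difference was 1.64.

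Bst2 encodes tetherin, which holds budding virus particles at the cell surface, and which in mouse marrow also marks plasmacytoid dendritic cells. It was at 37.3, 35.7 and 28.3 FPKM in Pro, 41.9, 40.2 and 33.6 in Baso, 58.3, 50.2 and 49.0 in Poly and 66.0, 59.2 and 57.1 in Ortho. Pro and Baso overlapped, Poly lay above Baso in all libraries, and Poly and Ortho overlapped. Bst2 had the highest mean of the 9 genes in Pro (33.8 ± 4.76) and an Ortho mean 1.8 times as high (60.7 ± 4.64; SD, n = 3 each). The plot of levels by library shows these patterns side by side.

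**Figure D1:**
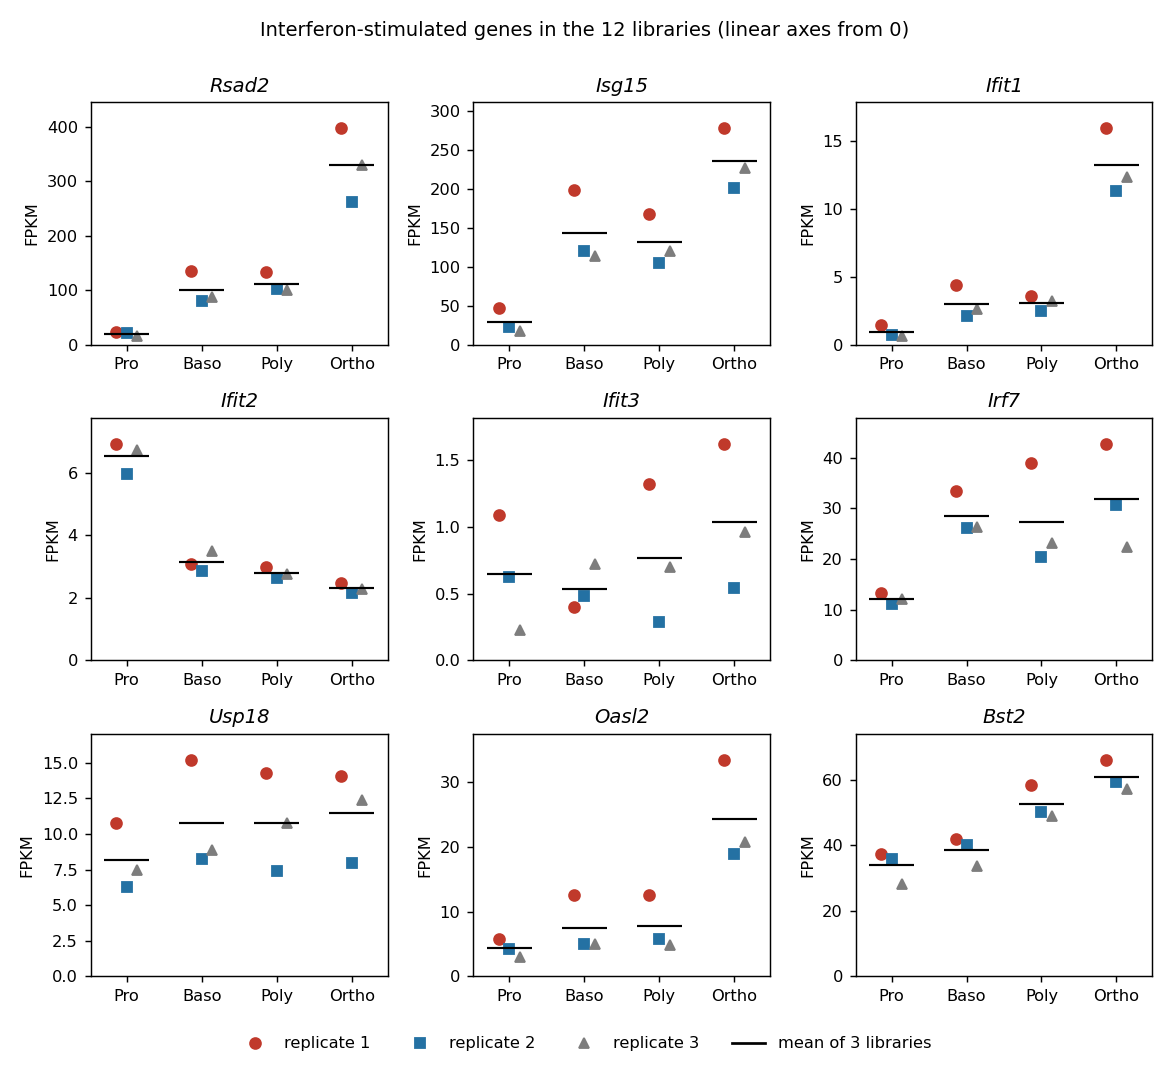
FPKM of the 9 genes in the 12 libraries, with a linear axis from 0 in each panel, a point per library shaped and coloured by replicate number, and a bar at the mean of each stage. Rsad2, Isg15, Ifit1 and Oasl2 have their highest values in Ortho, up to 397.5 for Rsad2, Ifit2 has its highest in Pro, up to 6.92, and Ifit3 and Usp18 overlap across stages.

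Across the 9 genes the steps were uneven. From Pro to Baso, 4 genes (Rsad2, Isg15, Ifit1 and Irf7) were higher in all libraries and Ifit2 was lower, against 16.8% of all genes tested that were higher without overlap and 44.2% that were lower. From Baso to Poly, Bst2 alone was higher without overlap and no gene was lower, against 20.5% and 15.9% of all genes, and the median of the 9 differences was 0.04. From Poly to Ortho, 4 genes (Rsad2, Isg15, Ifit1 and Oasl2) were higher and Ifit2 was lower, against 11.3% and 31.3%. Between Pro and Ortho the 6 genes higher and 1 lower without overlap compare with 23.2% and 53.6% of all genes. The comparison of Ortho with Pro is the one the genes were picked on, so nothing is read from these counts, and the comparisons with Pro share the Pro libraries.

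Against Pro, the median difference of the 9 genes in log2(FPKM + 1) came to 0.61 for Baso, 0.65 for Poly and 1.27 for Ortho, while the median of all genes tested was -0.23, -0.20 and -0.42. Hemoglobin transcripts bear on both medians, since FPKM is a share of each library. They held 6.98 to 10.7% of the summed FPKM in Pro and 47.2 to 52.6% in Ortho. With the hemoglobin genes left out and the libraries rescaled, the Ortho medians were 1.73 for the 9 genes and -0.03 for all genes, and with libraries rescaled to the same sum they were 0.92 and -0.72. In each of these scalings the 9 genes except Ifit2 were above the median of all genes.

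The library number moved with the levels within stages. The genes were picked for a rise between stages, but after a look at the same libraries, so this order too is only described. In 7 of the 9 genes (77.8%) the library numbered 1 was the highest of its stage in all 4 stages, and in Ifit2 and Ifit3 in 3 stages. Of all genes tested, 3.86% had this order for the libraries numbered 1, 1.76% for those numbered 2 and 2.06% for those numbered 3. In the libraries numbered 1, the median deviation of the 9 genes from the stage mean was 0.37 on the log2 scale for Pro, 0.45 for Baso, 0.38 for Poly and 0.29 for Ortho, while the median over all genes lay between -0.02 and 0.02. All 9 genes were above the stage mean in Pro, Poly and Ortho replicate 1, and 7 in Baso replicate 1. The labels do not say what a replicate number stands for, and what the libraries numbered 1 share was not tested.

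**Figure D2:**
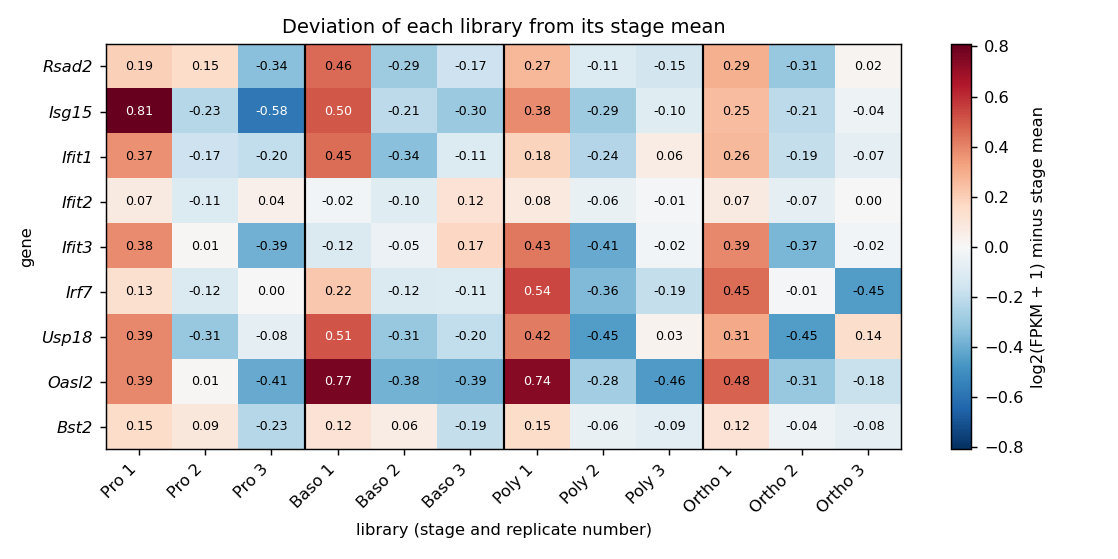
Deviation of each library from its stage mean, in log2(FPKM + 1), for the 9 genes (rows) in the 12 libraries (columns, grouped by stage), red above and blue below the mean. The libraries numbered 1 are mostly red, up to 0.81 for Isg15 in Pro replicate 1, and Ifit2 deviates least.

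Within stages the genes moved together. Over the 12 libraries, with the stage means taken off, Pearson's r had a median of 0.62 over the 36 pairs of genes, with 0.93 for Rsad2 and Oasl2 as the highest and -0.09 for Ifit2 and Bst2 as the lowest. Without Ifit2 the 28 pairs ranged from 0.51 to 0.93. The points of these correlations share libraries and scaling. They include the libraries numbered 1, so they hold the offset given above and are no separate result. The correlations were not repeated without those libraries, nor set beside pairs of other genes. Without the libraries numbered 1, the Ortho minus Pro difference was 3.94 for Rsad2, 3.37 for Isg15, 2.94 for Ifit1, 2.20 for Oasl2, 1.11 for Irf7, 0.85 for Bst2, 0.49 for Usp18, 0.30 for Ifit3 and -1.18 for Ifit2. The median over the 9 genes in Baso was 0.41 without these libraries, against 0.61 with them, and 0.22 without Baso replicate 1 alone.

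Other genes had a like pattern. Over the 12 libraries, the mean standardized level of the 9 genes correlated best with Slfn5, a member of the Schlafen family (r = 0.968), Ifitm3, which blocks virus entry (0.957), Atg12 (0.951), Chd2 (0.95), Ifi27l2a (0.95), Cebpb (0.942), Ifi204 (0.937) and Anks1 (0.936). With stage means taken off, the best were Oas2 (0.987), Ifi27 (0.985), Oas1a (0.979), Chkb (0.979), Sumf1 (0.978), Gm42047 (0.975), Dnajc10 (0.973) and Ifi204 (0.97). Of these 15 genes, Atg12 alone did not have its highest value in the library numbered 1 in all stages. They were ranked out of all genes tested by likeness to a profile that is itself high in those libraries. Nothing is therefore read from this order or from the size of r. Oas1a, an oligoadenylate synthetase, followed the library numbers but not the stages, with means of 6.92 FPKM in Pro and 6.34 in Ortho.

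The other genes of the interferon pathway were taken from 8 lists by role. The lists were drawn up with earlier results of these data known. Their counts, here and below, are therefore a description beside the shares over all genes, and no enrichment is read from them. Of 149 genes listed, 132 were in the table and 119 were tested, with limma on log2(FPKM + 1) and a call at a Benjamini-Hochberg adjusted p under 0.05 and a log2 difference of at least 1. In Baso against Pro, 4 genes were called higher, against 1.82% of all genes tested, and 1 was called lower, against 8.54%. In Poly against Pro, 4 were higher, against 3.59% of all genes, and 2 were lower, against 12.8%. In Ortho against Pro, 17 of the 119 (14.3%) were higher, against 6.33% of all genes, and 3 (2.52%) were lower, against 23.8%, while 99 were not called. Their median difference in Ortho was 0.50, against -0.42 over all genes. The count of 17 was 16 without the libraries numbered 1, 11 without Pro replicate 3, 45 with hemoglobin left out and 5 with libraries brought to equal sums. Across all genes, 21% of the 3915 Ortho calls were in the higher direction as deposited, 63.4% of 3100 with hemoglobin left out and 6.15% of 5167 with equal sums.

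At the top of the pathway, 5 of the 20 listed interferon genes were matched by symbol, and none of the 5 passed 0.261 FPKM in any library. The other genes of that list were not analysed here. Of the receptors and kinases, 1 of 9 was called in Ortho, as higher, against 6.33% of all genes tested. Ifnar1, a chain of the type I receptor, had 12.5 ± 0.162 FPKM in Pro and 27.2 ± 1.41 in Ortho (SD, n = 3 each), a log2 difference of 1.06 ± 0.06 (SE, limma, Benjamini-Hochberg adjusted p = 5.9e-08). The call was lost with equal library sums, at 0.71, and with a pseudocount of 5, at 0.88. Ifngr1, a chain of the interferon-gamma receptor, differed by 0.55 and the kinase Jak1 by -0.10, neither of which was called, though Ifngr1 was with hemoglobin left out, at 1.03.

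Among 9 STAT and IRF factors, 2 rose in Ortho and none fell, against 6.33% called higher and 23.8% called lower of all genes tested. Irf8, a factor of myeloid and dendritic cells, had 57.6 ± 12.1 FPKM in Pro and 125.7 ± 9.49 in Ortho, a log2 difference of 1.13 ± 0.14 (SE, limma, Benjamini-Hochberg adjusted p = 1.48e-05), and it fell short of the threshold without Pro replicate 3, at 0.97, and with equal library sums, at 0.76. Irf4, a factor of lymphoid cells, rose by 1.21 ± 0.12 (limma, Benjamini-Hochberg adjusted p = 2.32e-06), from 4.11 ± 0.488 to 10.8 ± 1.17, and was called in Poly as well. Its Ortho call was lost with equal library sums, at 0.89, and with a pseudocount of 5, at 0.80. Irf3, which is activated by nucleic acid sensors, differed by -0.73 and was not called, except with equal library sums, at -1.09. Among 15 sensors and adaptors, Tlr8, an endosomal sensor of RNA, rose by 1.18 and Tmem173, which encodes STING, rose by 1.04. The call for Tmem173 was lost without Pro replicate 3, at 0.90, and without Ortho replicate 1, at 0.98. Both calls were lost with equal library sums, at 0.90 for Tlr8 and 0.71 for Tmem173, and with a pseudocount of 5, at 0.61 and 0.74. The kinase Tbk1 and the adaptor Myd88 differed by 0.22 and 0.04, and were not called.

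In the enzymes that attach ISG15, Ube2l6 had the largest rise of the tested pathway genes. It encodes the conjugating enzyme of ISG15 and had 82.7 ± 42.9 FPKM in Pro and 271.9 ± 15.5 in Ortho (SD, n = 3 each), a log2 difference of 1.84 ± 0.28 (SE, limma, Benjamini-Hochberg adjusted p = 9.15e-05). It was also called in Baso, at 1.0. Uba7, the activating enzyme of ISG15, was called in Baso, at 1.16, and in Poly, at 1.11, but not in Ortho, at 0.80. Both Baso calls, of Ube2l6 and Uba7, were lost without Pro replicate 3 and also without Baso replicate 1. The Poly call of Uba7 was lost without Pro replicate 3 and also without Poly replicate 1. With hemoglobin left out or libraries centred on their median it was called in Ortho too, at 1.28 and 1.19. From Pro to Ortho its stage means were 35.5, 81.0, 77.5 and 61.6 FPKM.

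Of 50 antiviral effectors tested, 10 rose and 2 fell in Ortho, against 6.33% called higher and 23.8% called lower of all genes tested. Oas3, an oligoadenylate synthetase, went from 11.3 ± 2.84 to 34.5 ± 8.67 FPKM, by 1.53 ± 0.23 on the log2 scale (SE, limma, Benjamini-Hochberg adjusted p = 1.03e-04), and was called in Baso and Poly too. Ifitm1, a relative of Ifitm3, rose by 1.42 ± 0.17. Pnpt1, a mitochondrial nuclease that processes RNA, fell by 1.41, from 25.4 ± 2.23 to 8.96 ± 0.835, and was not called with hemoglobin left out, at -0.94. The other gene that fell was Lgals3bp, named here after its values were seen, by 1.18, and it was called lower in Baso and Poly as well. Ly6e and Isg20, the most abundant of the list, were not called, at 0.10 and 0.75, although Isg20 was past the threshold without Pro replicate 2, at 1.06, with hemoglobin left out, at 1.24, and with libraries centred on their median, at 1.15. In 25 of the 50 effectors (50.0%) the library numbered 1 was the highest in all stages, against 3.86% of all genes tested.

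The paralogues of the 9 genes differed among themselves. Oasl1, the relative of Oasl2 in which no call was made, differed by -0.55 in Ortho, with means of 4.95 in Pro and 3.02 in Ortho. Ifit1bl2 differed by 0.59, with means of 0.43 and 1.14, and Ifit1bl1 and Ifit3b were too low to be tested. Of 23 genes of interferon-gamma GTPases and antigen processing, only Irgm2 was called higher and none lower, against 6.33% and 23.8% of all genes tested. Irgm2, a GTPase of the response to intracellular microbes, rose by 1.45 ± 0.16 (SE, limma, Benjamini-Hochberg adjusted p = 7.37e-06), and the call was lost with a pseudocount of 5, at 0.76. The class I genes B2m and H2-D1, with Ortho means of 556.4 and 383.2 FPKM, differed by 0.06 and 0.32 and were not called. Among 9 feedback inhibitors, Ptpn2, a phosphatase of Janus kinases, fell by 1.02. The call was lost without Pro replicate 1 (-0.94), without Pro replicate 3 (-0.99), without the libraries numbered 1 (-0.94), with hemoglobin left out (-0.55), with libraries centred on their median (-0.63) and with a pseudocount of 5 (-0.84). The phosphatases Ptpn6 and Ptpn11 differed by 0.75 and -0.81 and were not called, though Ptpn6 was with hemoglobin left out, at 1.23, and when centred, at 1.15, and Ptpn11 with equal library sums, at -1.17. Cish, named here after its values were seen, was called in Baso at 1.19 and not in later stages.

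**Figure D3:**
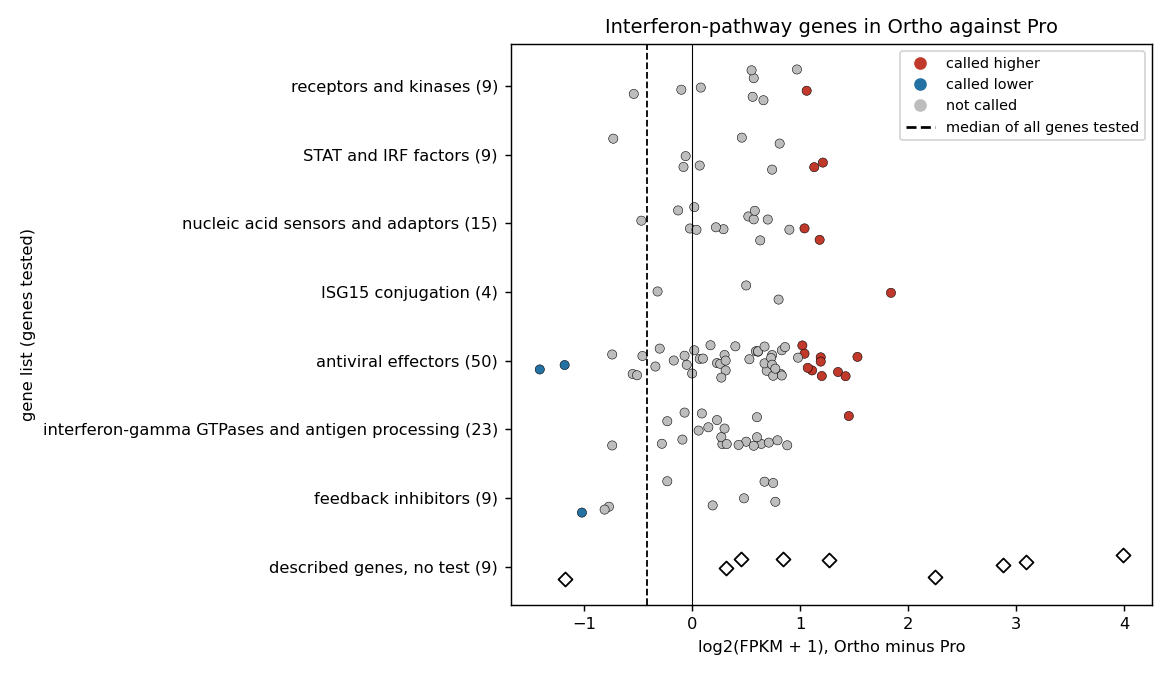
Difference of Ortho to Pro in log2(FPKM + 1) for the 119 tested pathway genes by list, a point per gene, red where called higher, blue where called lower and grey where not called, with the 9 described genes as open diamonds and the median of all genes tested, -0.42, as a dashed line. The called genes reach 1.84, while Rsad2, Isg15, Ifit1 and Oasl2 lie beyond 2.

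Markers of other marrow cells moved with the stages, beside the levels above. Hemoglobin genes were abundant: Hba-a1 and Hba-a2, the alpha globin genes, had Ortho means of 92608 and 93144 FPKM. Of the 13 erythroid markers in the table, 8 were called higher in Ortho and 3 lower, against 6.33% and 23.8% of all genes tested. The 3 were Gata1 and Klf1, transcription factors of the red cell lineage, and Epor, the erythropoietin receptor, named here after their values were seen, which fell by 2.04, 2.19 and 1.66. The gate kept cells negative for CD45, CD11b and GR1, which would remove most neutrophils, monocytes and lymphocytes. In the libraries, Ptprc, which encodes CD45, had 26.9 ± 3.34 FPKM in Pro and 57.5 ± 6.70 in Ortho (SD, n = 3 each) and was called higher, and Cd44 had 32.9 and 54.9 and was not called.

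Neutrophil markers were the most abundant of the other cell types, with sums of 7684 to 9430 FPKM in Pro and 15048 to 18856 in Ortho, and 8 of 15 were called higher. Beside this list and those below, 6.33% of all genes tested were called higher in Ortho. S100a9 and S100a8, calcium-binding proteins of neutrophils, had Ortho means of 6101 and 4005. Monocyte markers summed to 319.9 to 399.5 in Pro and 707.2 to 805.6 in Ortho, with 4 of 7 called higher. Of these, F13a1 rose by 1.15, and Ly6c2 differed by 0.93 and was not called. B cell markers summed to 178.0 to 286.3 and 523.9 to 573.0, with 10 of 12 called higher, among them Ighm, the immunoglobulin heavy chain, by 1.42 and Vpreb3 by 1.22. In a bulk sample, a change in the number of cells of a type and a change in RNA per cell cannot be told apart.

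Plasmacytoid dendritic cells, which express Bst2, Irf7 and Irf8 at a high level, had a marker sum of 23.4 to 30.6 FPKM in Pro and 53.8 to 58.4 in Ortho. Of their 7 markers, 3 were called higher, against 6.33% of all genes tested: Flt3, Siglech and Cd300c, the latter pair named after their values were seen. Tcf4 and Flt3, the most abundant over the 12 libraries, had Ortho means of 11.7 and 13.6. Macrophage markers summed to 6.87 to 10.3 in Pro and 12.8 to 16.2 in Ortho. The most abundant, Adgre1 and Vcam1, had 3.84 and 3.03 in Pro and 7.85 and 2.25 in Ortho and were not called, while 6 of the 11 had at most 1 FPKM in every library. Of the 10 T and NK cell markers, 6 were at most 1 FPKM in every library. Of the 4 tested, Gzma alone was called higher, and Nkg7 differed by 0.56. Of 9 megakaryocyte and platelet markers, 6 fell and none rose, against 23.8% called lower and 6.33% called higher of all genes tested. Pf4, a platelet chemokine, fell by 1.79, and Itga2b differed by 0.39 and was not called. The part of these cells in the levels of the 9 genes was not tested.

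The mean marker sum in Ortho was 2.12 times that in Pro for plasmacytoid dendritic cells, 2.12 for monocytes, 2.04 for neutrophils, 2.52 for B cells, 1.64 for macrophages, 1.59 for T and NK cells and 0.413 for megakaryocytes and platelets. Each sum is carried by a few abundant genes, and the 9 genes were picked on their Ortho levels, so no comparison of these ratios with theirs is made. In Pro, replicate 1 had the highest Isg15 level of 47.1 and the lowest neutrophil sum of 7684. In Baso, Poly and Ortho, replicate 1 had the highest neutrophil sum, at 15367, 20171 and 18856. Macrophage sums had the same order, with 6.87 as the lowest in Pro and 13.2, 14.9 and 16.2 as the highest later. Replicate 1 had the highest monocyte sum in Poly and Ortho and the highest plasmacytoid dendritic cell sum in Baso and Ortho. It had the highest B cell sum in no stage. The library numbered 1 was highest in all stages for 5 of 15 neutrophil, 2 of 7 monocyte and 1 of 7 plasmacytoid dendritic cell markers and for none of the B cell markers.

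**Figure D4:**
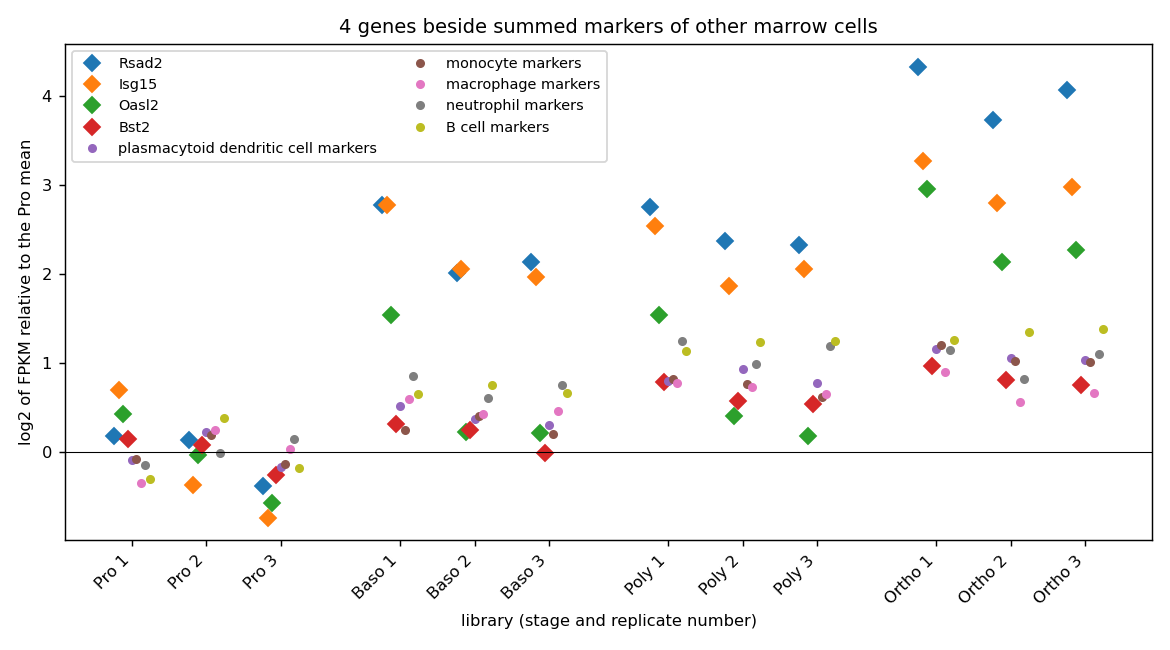
Log2 of FPKM relative to the mean of the 3 Pro libraries, for Rsad2, Isg15, Oasl2 and Bst2 (diamonds) and for the summed markers of 5 other marrow cell types (small circles), in the 12 libraries grouped by stage. All 5 marker sums lie above 0 in every Baso, Poly and Ortho library, as do the 4 genes except Bst2 in Baso replicate 3. The other described genes and the T and NK cell markers are not drawn. Nor are the megakaryocyte and platelet markers, whose mean sum in Ortho was 0.413 times that in Pro.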

How the data were processed

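RNA sequencing of sorted erythroblasts gave 12 libraries, with stage and replicate number from the sample titles. For Ortho replicates 2 and 3 the cell type label says only that they are erythroblasts, and the title gave the stage. The submitters' processing notes name cutadapt, Trimmomatic, HISAT2, SAMtools and featureCounts, without versions or order, and the build mm10. The labels name Trizol extraction and a NEBNext Ultra kit, and the study's methods another lysis and a KAPA Hyper Prep kit. The authors deposited 1 table of FPKM values per gene and library, without counts and without columns of their own comparisons. How the FPKM were computed is not given in the sources used here. The table had 29839 lines and 29838 genes after 1 repeated identifier. The log2 ratios of values between libraries showed no steps (at most 8.72% in a bin of 0.1 over 66 pairs), so the depth is unknown and no counting error is given.

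The test was limma (version 3.58.1, R 4.3.3) on log2(FPKM + 1), for the 12994 genes that reached an FPKM of 1 in 3 or more libraries, all 9 described genes among them. This is a scale that understates changes of low genes. All 12 libraries were in 1 model with a variance trend, and two-sided p-values were adjusted by Benjamini-Hochberg over all genes tested. In a simulation of Ortho against Pro over the same 12994 genes, the model called 98.5% of 200 genes changed by 2 on the log2 scale, and 2 unchanged genes. The simulated noise was normal and independent between libraries, and few genes were changed. In the data the pathway calls were smaller, at most 1.84 in size, and the libraries numbered 1 deviated together. The simulated rates therefore do not carry over to the calls above. The study's DESeq2 needs counts and was not run. Tables were handled in Python 3.11.15 with pandas 2.3.3, positions came from GENCODE M21, where 29750 identifiers were found, and promoters from RefSeq. Itgam, a gene of the sorting list, belonged to 2 identifiers, and the first was used.

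The 9 genes and all lists were chosen with earlier results of these data known. Named were all 9 genes and their paralogues, from each pathway list the 3 called genes with the largest Ortho difference and the 2 most abundant, from each marker list the 2 with the highest mean over the 12 libraries, and the 8 genes of most like pattern by each of 2 measures. Other pseudocounts, filters, scalings, variance models, a replicate block and leaving out libraries were tried as alternatives.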

Additional observations from a re-analysis of the deposited data

How the results depend on the processing

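Counts of called pathway genes depended on the scale and the call rule. The cause was not tested, except where the rule itself asks for less. With a pseudocount of 0.1 in place of 1, 16 genes were higher in Poly and 31 in Ortho. With a pseudocount of 5 the higher counts were 2 in Baso, 2 in Poly and 6 in Ortho, and 1 was lower in Poly. With equal library sums, 2 were higher and 2 lower in Baso, and 5 higher and 8 lower in Ortho. With hemoglobin left out, 8 were higher in Baso, 18 in Poly and 45 in Ortho, with 1 lower in Poly and 0 in Ortho, where limma left 6 at an unadjusted p under 0.05 and 6 by adjusted p alone. With libraries centred on their median, 11, 19 and 49 were higher, and 1 was lower in Poly and 1 in Ortho. Over all genes, 21% of 3915 Ortho calls were higher in the main setting. The share was 63.4% of 3100 with hemoglobin left out, 61.6% of 3371 when centred and 6.15% of 5167 with equal sums. The calls over all genes thus moved with the scale too, and the changes in these counts are not read as particular to the pathway. For the other settings the counts over all genes are not given here. By adjusted p alone, which asks for no size, 35, 59 and 64 were higher and 9, 8 and 15 lower. The median of the 9 genes in Ortho was 1.73 with hemoglobin left out and 1.67 when centred.

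Leaving out a library at a time gave 2 (without Pro replicate 3) to 5 higher genes in Baso, 3 to 7 (without Pro replicate 2) in Poly and 11 (without Pro replicate 3) to 20 in Ortho, and 1, 2 and 2 to 3 lower genes. The median of the 9 genes ranged over 0.22 to 0.80 in Baso, 0.51 to 0.88 in Poly and 1.05 to 1.50 in Ortho. Leaving out the libraries numbered 1 was chosen after seeing the data. None of the 9 genes changed the sign of its Ortho difference in any alternative, while B2m, H2-D1, Jak1, Ly6e, Myd88 and Tbk1, which were not called, did in at least 1.

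Libraries with the same number were not treated as paired. Between Pro and the other stages, their deviations from the stage means correlated by 0.00524 to 0.0968, against -0.123 to 0.0545 for libraries of different number. Among the 3 later stages the values were 0.156 to 0.319, against -0.206 to 0.0287. In 40 of the 119 pathway genes tested (33.6%), the library numbered 1 was the highest in all stages, against 3.86% of all genes. The p-values take no account of this shared order. In the fit with a replicate block, 4, 4 and 17 pathway genes were higher and 1, 2 and 3 lower. Every number occurs in every stage, so the block cannot change a difference between stages, only its spread. The medians of the 9 genes, 0.61, 0.65 and 1.27, were thus fixed in advance. This fit does not show that the replicate number is without effect. Depth is unknown, and low values such as those of Ifit3 rest on the spread of 3 libraries alone.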
